A study of Homo sapiens with 18 samples.

Results

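The Hmx1 effect was compared between tumours of the neuroblastoma line SKNAS and tumours of LAN-1 and KELLY. For each gene and line, the effect was the mean log2(TPM + 1) of the Hmx1 libraries minus that of the control libraries, where TPM is a length-corrected transcript level scaled to the same total in every library. The difference of effects was the SKNAS effect minus the mean of the LAN-1 and KELLY effects, so a value above 0 means a larger rise, or a smaller fall, in SKNAS. All 18 libraries of the series entered, and of the 63677 listed genes, 18650 were tested because 3 or more libraries held them at 1 TPM or above. Of the genes tested, 12923 were expressed in all lines, meaning a mean of at least 1 TPM over the 6 libraries of each line. Another 946 were silent outside SKNAS, with a line mean under 0.5 TPM in both LAN-1 and KELLY and of at least 1 TPM in SKNAS, 399 were silent in SKNAS by the mirror rule, and 4382 fell in between.

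The groups were SKNAS_Control, SKNAS_Hmx1, LAN-1_Control, LAN-1_Hmx1, KELLY_Control and KELLY_Hmx1, each with 3 libraries. Every library came from bulk tissue of a xenograft, a tumour that human cells formed in a mouse. The labels state no treatment, mouse strain, vector or age, and they leave unsaid in which direction Hmx1 was altered, whether a group rests on 1 clone, and whether its libraries came from separate animals. The p-values therefore rest on library-to-library spread that could be technical. KELLY and LAN-1 are established lines with amplified MYCN, and SKNAS is an established line without it. MYCN was at most 0.101 TPM in the 6 SKNAS libraries and between 741 and 2000 TPM in the other 12, so the levels followed the lines' names.

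HMX1 is a homeobox transcription factor of sensory ganglia and sympathetic neurons. In developing sympathetic ganglia it is known as a regulator of the choice between a noradrenergic and a cholinergic fate. Homeobox factors bind short DNA motifs and can raise or lower their target genes, and the set of targets depends on which other factors and which open chromatin a cell has. A line without a given lineage programme may thus respond to the same factor through other genes, and the comparison asks how far the lines' responses differed.

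HMX1 itself separated the SKNAS arms only at low levels. It was listed at 0 in the 3 SKNAS control libraries and at 1.24, 0.193 and 0.411 TPM in SKNAS Hmx1. In the 12 libraries of the other lines it ranged from 3.92 to 16.5 TPM with a median of 9.42, and their arms overlapped. HMX1 was therefore higher in every LAN-1 and KELLY library, controls included, than in any SKNAS library. The difference of effects was 0.57 on the log2(TPM + 1) scale, which depends on the added 1 for a gene listed at 0, and an exact two-sided permutation of arms within lines gave p = 0.158 over 8000 relabellings. With a pseudocount of 0.1 the HMX1 difference was 2.47 and was called by limma (adjusted p = 0.00607). Its paralogue HMX2 was at 7.22, 5.53 and 9.47 TPM in SKNAS control and at 15.9, 21.6 and 16.5 TPM in SKNAS Hmx1, without overlap. HMX2 also lay higher in LAN-1 Hmx1 (11.8 ± 1.44 TPM, SD, n = 3) than in LAN-1 control (7.15 ± 2.53), and its difference of effects (0.86, SE 0.27) did not pass limma's test (adjusted p = 0.0727), but passed it in 4 of 30 alternatives. HMX3 stayed under the level needed for testing. Its difference had an exact permutation p of 0.02, which became 0.08 after Benjamini-Hochberg adjustment over the 4 genes HMX1, HMX2, HMX3 and MYCN. A sequence introduced from another species would not need to be counted under these gene names, and this was not tested.

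Libraries differed between lines and also within groups. Mitochondrial transcripts took 4.47% to 7.07% of the TPM of a library in LAN-1 and 14.0% to 21.2% in SKNAS. In KELLY the range was 12.9% to 33.8%. The highest share was that of KELLY control replicate 1, and KELLY control replicates 2 and 3 had 12.9% and 29.6%. Over the genes expressed in all lines, the median SD within a group was 0.18 log2 units in SKNAS, 0.20 in LAN-1 and 0.36 in KELLY.

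The response of SKNAS differed from that of the other lines at 1189 genes, 6.38% of those tested. The difference was above 0 for 666 genes (3.57%) and below 0 for 523 (2.8%), called at a Benjamini-Hochberg adjusted p under 0.05 in limma. Within lines, the same fit called 1634 genes in SKNAS (8.76%), 84 in LAN-1 (0.45%) and 17 in KELLY (0.0912%). The mean effect of LAN-1 and KELLY was called for 28 genes (0.15%). Of the 1189 genes, 1074 were called in SKNAS, 34 in LAN-1 and 1 in KELLY. The difference between the LAN-1 and KELLY effects was called for 39 genes (0.209%), against 931 for SKNAS minus LAN-1 (4.99%) and 904 for SKNAS minus KELLY (4.85%). These comparisons share libraries. Without SKNAS Hmx1 replicate 1 the total was 779, and without SKNAS Hmx1 replicate 2 it was 785.

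Genes expressed in all lines gave 485 of the calls, which was 3.75% of that class against 6.38% of all genes tested. The difference was above 0 for 287 of them and below 0 for 198, and 316 had a size of at least 1 log2 unit. The SKNAS effect of these 485 genes had a median size of 1.01, against 0.22 in LAN-1 and 0.18 in KELLY. SKNAS differed from each of the other lines singly at 180 of the 485, and from neither singly at 77. The count depended on scaling and on single libraries. It was 984 with quantile normalization, 927 with median-ratio scaling, 804 with FPKM and 785 with a separate spread for each line, the last chosen after the data were seen. It was 295 without SKNAS control replicate 1, 308 without SKNAS Hmx1 replicate 1, 300 without SKNAS Hmx1 replicate 2 and 826 without KELLY control replicate 1.

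Genes silent outside SKNAS gave 296 calls, 31.3% of their class. The difference was above 0 for 135 and below 0 for 161, and 295 of the 296 were called in SKNAS itself. For these genes the LAN-1 and KELLY effects are near 0 by construction, so the difference is the SKNAS effect under another name. Their share should be read beside the rule of the class and beside their spread. The median SD of this class was 0.26 log2 units in SKNAS and 0.07 and 0.08 in LAN-1 and KELLY, while the fit used 1 spread for all lines. With a separate spread for each line, an alternative chosen after the data were seen, 237 of the class were called, and with a pseudocount of 0.1 the number was 163. In 106 of the 296, all libraries of 1 SKNAS arm lay under 1 TPM while the other arm had at least 1 library at 1 TPM or above.

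**Figure D1:**
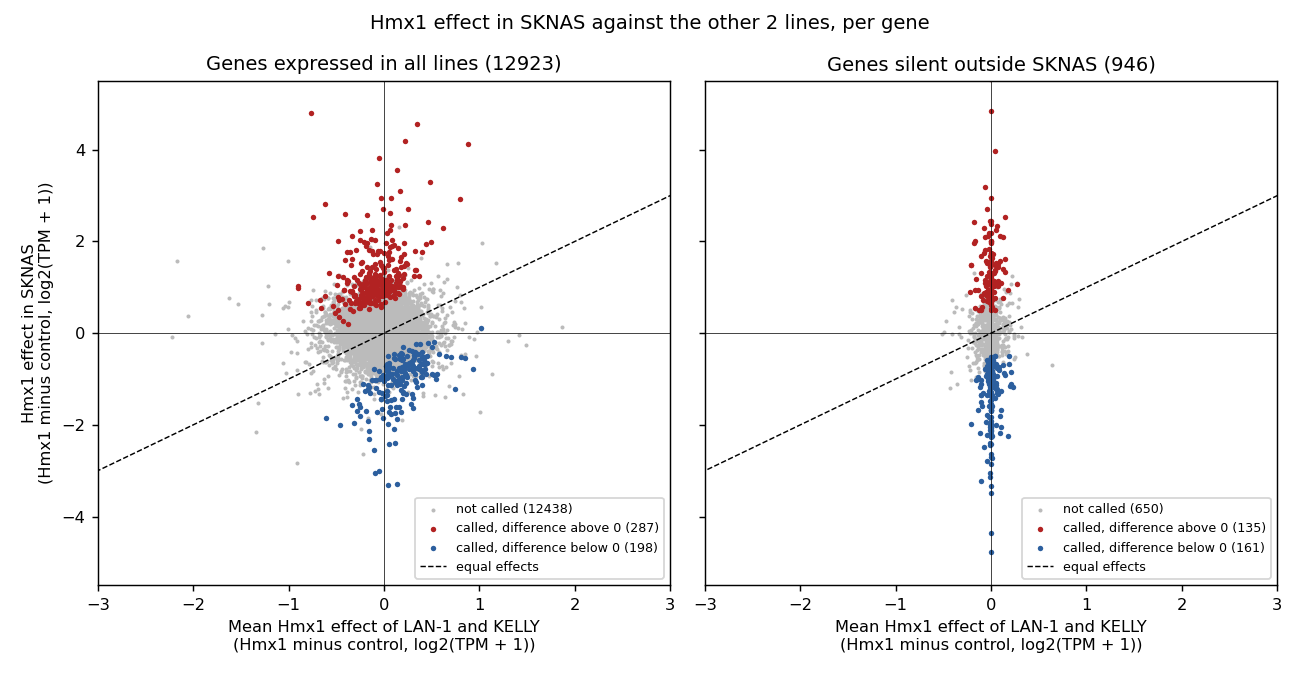
Each point is a gene, with the mean Hmx1 effect of LAN-1 and KELLY on the x axis and the SKNAS effect on the y axis, both as Hmx1 minus control in log2(TPM + 1). Red and blue points are the called differences above and below 0 (287 and 198 genes expressed in all lines, left, and 135 and 161 genes silent outside SKNAS, right), and the dashed line marks equal effects. Called genes spread along the y axis in both panels.

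Among genes expressed in all lines, the rises that set SKNAS apart included genes that SKNAS control tumours hardly expressed although the other lines did. ZNF22, a zinc finger transcription factor gene (GRCh37 chromosome 10, 45495923 to 45500774), was at 0.104, 0.213 and 0.446 TPM in SKNAS control and at 11.4, 18.2 and 12.2 TPM in SKNAS Hmx1. In the other 12 libraries it lay between 40.0 and 92.0 TPM with a median of 77.5. The SKNAS arms did not overlap, and the Hmx1 arm still lay below every library of LAN-1 and KELLY. Its difference of effects was 3.42 (SE 0.29, limma adjusted p = 3.9e-07).

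ZFP82, another zinc finger gene (chromosome 19, 36874022 to 36909558), was at 0.074, 0.246 and 0.0472 TPM in SKNAS control and at 9.65, 9.88 and 9.73 TPM in SKNAS Hmx1, within the range of 5.37 to 15.1 TPM of the other lines. The difference was 3.34 (SE 0.29, adjusted p = 4.8e-07). ABCC8, the sulfonylurea receptor subunit of ATP-sensitive potassium channels, moved from 0.139, 0.162 and 0.153 TPM to 8.92, 8.21 and 6.65 TPM, against 2.81 to 11.9 TPM elsewhere. KCNJ11, the pore subunit of the same channel and its neighbour on chromosome 11, went from a mean of 2.69 to 6.33 TPM in SKNAS, with a difference of 1.15 (SE 0.29, adjusted p = 0.022). For ZFP82 and ABCC8 the SKNAS Hmx1 arm lay within the range of the other lines, whose own arms overlapped.

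Some rises took SKNAS tumours past the level of the other lines, and others did not. TIMP3, an inhibitor of matrix metalloproteinases, was at 10.3, 8.32 and 9.60 TPM in SKNAS control and at 58.0, 66.0 and 61.2 TPM in SKNAS Hmx1, above the highest value of 9.22 TPM elsewhere. Its difference was 3.01 (SE 0.33, adjusted p = 1.1e-05). ARMCX2, an X-linked armadillo repeat gene, moved from 5.43, 6.18 and 5.55 TPM to 55.2, 58.1 and 57.6 TPM, past the maximum of 40.6 TPM in the other lines. ADCYAP1R1, the receptor of the neuropeptide PACAP, went from 1.67, 0.989 and 1.90 TPM to 16.1, 20.8 and 17.9 TPM, close to the other lines' median of 22.2 TPM. CPNE7, a copine with calcium-dependent membrane binding, went from 0.896, 1.85 and 0.786 TPM to 10.4, 15.4 and 9.20 TPM. CPNE7 lay lower in the Hmx1 arm of both other lines (25.7 against 39.9 TPM in LAN-1 and 7.50 against 14.7 TPM in KELLY), but neither difference passed the test (adjusted p = 0.498 and 0.305). The difference of effects of CPNE7 was 3.29, and it lay between 3.23 and 3.35 with each KELLY control library left out.

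The largest differences among protein-coding genes expressed in all lines belonged to cancer-testis genes, which most adult tissues outside the germ line keep silent. MAGEA12 (chromosome X, 151899293 to 151903184) was at 1.004, 0.583 and 0.566 TPM in SKNAS control and at 49.7, 39.5 and 51.8 TPM in SKNAS Hmx1. Its mean was 1.51 TPM in LAN-1 control, 0.498 in LAN-1 Hmx1, 77.1 in KELLY control and 47.7 in KELLY Hmx1, so SKNAS Hmx1 tumours reached the KELLY range while LAN-1 stayed low. The difference of effects was 5.57 (SE 0.37, adjusted p = 2.3e-08). MAGEA3 moved from 2.45, 1.81 and 2.08 TPM to 44.0, 35.0 and 50.5 TPM (difference 3.87, SE 0.43). MAGEA2B was listed at 0 in the 3 SKNAS control libraries and at 24.2, 17.1 and 27.4 TPM in SKNAS Hmx1, and no fold is given. The calls formed the longest run of the series: 9 neighbouring genes on chromosome X between 151867214 and 151938240, all 9 tested genes of that span, had differences above 0 with a median of 3.63. CSAG1, which lies in the run, was at 0.957, 0.402 and 0 TPM and at 28.6, 19.1 and 36.6 TPM in the SKNAS arms. MAGEA1 went the other way, from a mean of 192 to 24.6 TPM in SKNAS (difference -2.98, SE 0.25), and was at 82.6 and 83.9 TPM in the KELLY arms. Several of these genes have near-identical copies (MAGEA3 and MAGEA6, MAGEA2 and MAGEA2B, CTAG1A and CTAG1B), between which the counting could have split reads, so values of single copies are uncertain. In the list of cancer-testis families 9 of 21 tested members were called above 0 and 2 below, or 52.4% against 6.38% of all genes tested. The list holds 32 genes, and a gene high in the SKNAS Hmx1 libraries alone could pass the filter, so the share is a description.

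The promoter sequences of genes that moved this way differ widely in their CG pairs. The 250 bases upstream of the RefSeq start are printed 5′ to 3′ in GRCh38.p14 with CG pairs in capitals, for MAGEA genes that moved together, for the zinc finger genes that SKNAS control hardly expressed, and for LDOC1, which fell from a high level and is described next.
MAGEA12 (chrX:152733507-152733756, plus strand): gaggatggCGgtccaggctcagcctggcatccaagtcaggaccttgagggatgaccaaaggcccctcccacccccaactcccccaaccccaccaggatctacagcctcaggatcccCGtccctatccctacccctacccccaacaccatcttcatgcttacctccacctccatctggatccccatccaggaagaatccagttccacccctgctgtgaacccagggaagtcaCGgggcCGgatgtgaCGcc
MAGEA2B (chrX:152714378-152714627, plus strand): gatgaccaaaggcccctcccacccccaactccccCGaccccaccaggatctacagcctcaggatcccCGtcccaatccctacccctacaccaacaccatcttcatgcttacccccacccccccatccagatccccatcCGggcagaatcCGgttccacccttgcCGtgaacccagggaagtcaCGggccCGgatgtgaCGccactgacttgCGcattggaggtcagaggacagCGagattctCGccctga
MAGEA3 (chrX:152698544-152698793, plus strand): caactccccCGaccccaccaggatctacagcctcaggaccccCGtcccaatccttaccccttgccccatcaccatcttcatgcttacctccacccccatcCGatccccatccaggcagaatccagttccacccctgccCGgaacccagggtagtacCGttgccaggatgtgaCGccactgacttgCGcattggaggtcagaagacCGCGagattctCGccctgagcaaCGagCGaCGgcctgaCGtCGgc
ZNF22 (chr10:45000673-45000922, plus strand): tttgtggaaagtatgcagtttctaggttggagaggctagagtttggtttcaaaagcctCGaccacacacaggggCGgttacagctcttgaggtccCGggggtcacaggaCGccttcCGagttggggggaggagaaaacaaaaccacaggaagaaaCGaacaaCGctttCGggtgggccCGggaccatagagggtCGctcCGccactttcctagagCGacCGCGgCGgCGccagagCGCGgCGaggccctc
ZFP82 (chr19:36418645-36418894, minus strand): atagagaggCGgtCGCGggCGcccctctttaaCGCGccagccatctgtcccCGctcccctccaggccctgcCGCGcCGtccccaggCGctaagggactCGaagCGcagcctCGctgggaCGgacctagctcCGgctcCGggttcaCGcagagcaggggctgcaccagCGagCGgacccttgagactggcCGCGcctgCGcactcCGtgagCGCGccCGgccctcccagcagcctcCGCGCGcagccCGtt
LDOC1 (chrX:141177130-141177379, minus strand): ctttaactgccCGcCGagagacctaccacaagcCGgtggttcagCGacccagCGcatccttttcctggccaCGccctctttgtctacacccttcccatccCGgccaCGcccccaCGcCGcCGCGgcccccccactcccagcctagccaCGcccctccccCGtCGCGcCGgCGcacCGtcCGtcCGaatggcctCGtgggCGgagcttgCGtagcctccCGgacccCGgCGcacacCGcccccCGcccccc
The longest run shared without a gap was 38 bases between MAGEA2B and MAGEA3, 37 between MAGEA12 and MAGEA2B and 27 between MAGEA12 and MAGEA3, while every pair with ZNF22, ZFP82 or LDOC1 shared at most 9. They held 5, 11 and 15 CG pairs, against 19 in ZNF22, 31 in ZFP82 and 29 in LDOC1. Over 300-base windows, which add the first 50 bases of the transcript, the median was 14 CG pairs for all 27305 promoters and 27 for the genes expressed in all lines that had a promoter entry. It was 24.5 for the genes of that class called above 0 and 29 for those called below 0. In genes silent outside SKNAS it was 13, with 9 for those called above 0 and 11 for those called below 0.

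HMX proteins are known to bind a core of CAAGTG. None of the 6 stretches above holds it on either strand, which says only that these letters are not in this window. In the 300-base windows, CAAGTG or its complement CACTTG stood in 11.5% of all promoters. It stood in 13.3% of 188 promoters of genes expressed in all lines that were called above 0. The share was 8.84% of 147 for those called below 0 and 7.99% of the 9308 of the class. In the class silent outside SKNAS the shares were 15.6% of 77, 16.0% of 94 and 12.1% of 455. These shares are a description with no test.

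Falls that set SKNAS apart took genes that every line expressed to low levels in the SKNAS Hmx1 arm. LRRC61, a leucine-rich repeat gene (chromosome 7, 150019728 to 150035239), was at 17.0, 16.8 and 24.9 TPM in SKNAS control, at 1.69, 0.493 and 1.13 TPM in SKNAS Hmx1 and between 32.3 and 43.3 TPM in the other 12 libraries. Its difference was -3.35 (SE 0.25, adjusted p = 7.9e-08). CSTF2T, a paralogue of an mRNA cleavage factor subunit, was at 26.3, 25.5 and 26.0 TPM and then at 2.71, 1.72 and 2.66 TPM, against 10.4 to 38.4 TPM elsewhere. LDOC1, an X-linked gene derived from a retrotransposon (140269934 to 140271310), went from 65.9, 57.4 and 44.1 TPM to 5.61, 4.32 and 7.83 TPM, against 31.3 to 72.1 TPM in the other lines. The SKNAS control arm lay within the range of the other lines for CSTF2T and LDOC1 and below it for LRRC61, and the SKNAS Hmx1 arm lay below every other library for all 3. ZBED10P, also called, lies inside the span of LRRC61, and reads of overlapping genes may not have been told apart.

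Another group fell from levels that were highest in SKNAS control. GNGT1, a G protein gamma subunit, was at 21.3, 37.0 and 23.2 TPM in SKNAS control and at 2.99, 1.31 and 1.38 TPM in SKNAS Hmx1, within the 0.698 to 4.24 TPM of the other lines (difference -3.43, SE 0.32). IRS2, an adaptor of the insulin receptor, went from 59.4, 75.8 and 61.9 TPM to 10.04, 9.47 and 11.8 TPM, against 7.02 to 13.5 TPM (difference -2.44, SE 0.28). HYCC1, part of a complex that makes phosphatidylinositol 4-phosphate at the plasma membrane, went from 34.5, 24.9 and 31.9 TPM to 6.05, 5.32 and 6.90 TPM, against 4.36 to 10.7 TPM. The Hmx1 arm of SKNAS came to lie in the range of the other lines for all 3 of these genes, which were named for the size of their difference and grouped after their values were seen.

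Matrix genes appeared among the falls. PLOD2, the lysyl hydroxylase of collagen telopeptides, was at 35.6, 30.5 and 28.9 TPM in SKNAS control and at 5.69, 4.21 and 5.76 TPM in SKNAS Hmx1, below the 17.3 to 46.1 TPM of the other lines (difference -2.51, SE 0.26, adjusted p = 4.8e-06). COL12A1, a collagen of the surface of fibrils, went from 90.7, 78.7 and 135 TPM to 18.1, 18.9 and 20.1 TPM, still above the 3.06 TPM that was the maximum elsewhere. Its call was lost with a pseudocount of 0.1 (adjusted p = 0.0871).

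**Figure D2:**
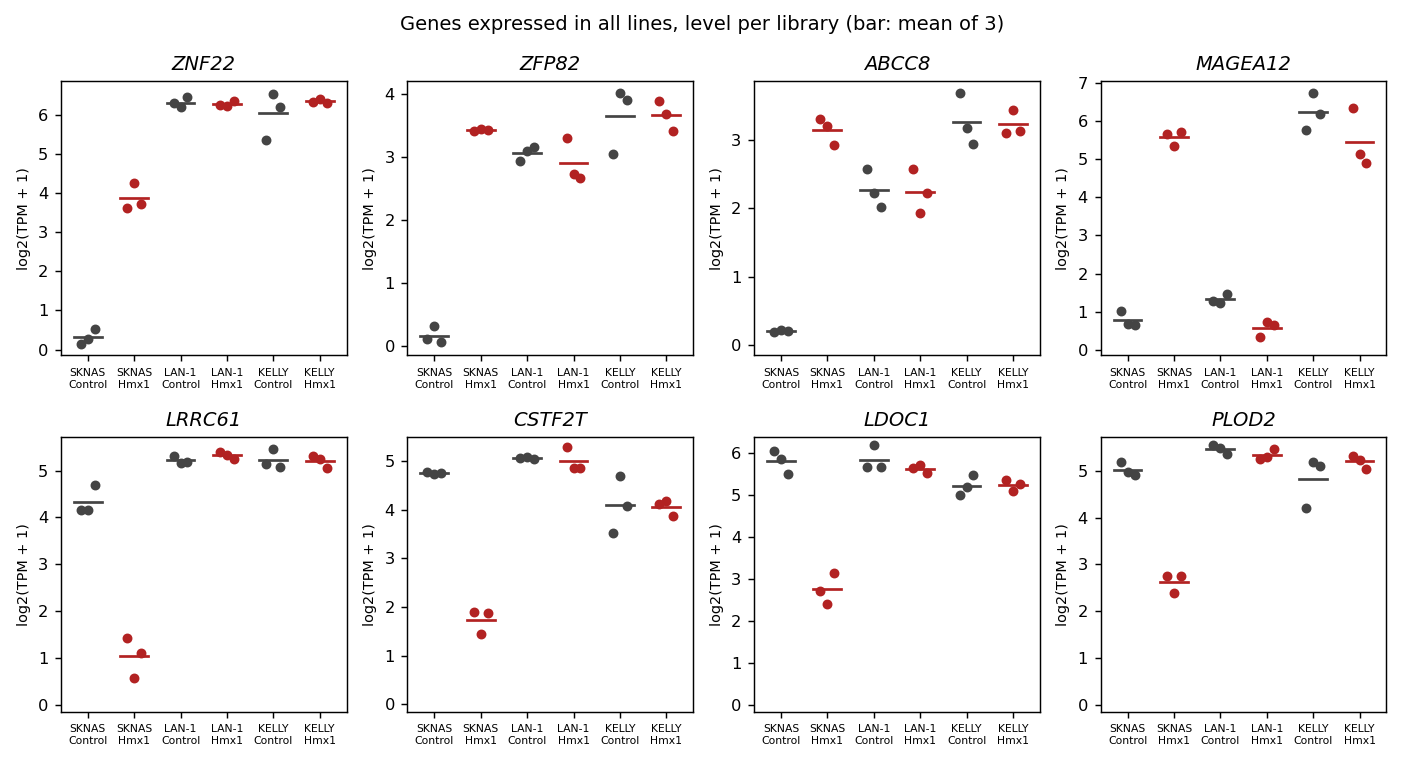
Level of 8 genes expressed in all lines, in log2(TPM + 1) on the y axis, with a point for each of the 18 libraries and a bar for the mean of 3; control is grey and Hmx1 red. Both SKNAS arms stand apart in every panel, while the arms of LAN-1 and of KELLY overlap except for MAGEA12 in LAN-1.

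Over all 485 called genes expressed in all lines, the mean of the SKNAS Hmx1 arm was nearer to the mean of the 12 other libraries for 283 genes, and the mean of the control arm was nearer for 202. The median distance was 0.96 log2 units for the control arm and 0.85 for the Hmx1 arm. Among the 287 with a difference above 0, 75 had a control arm more than 1 unit away and an Hmx1 arm within it, and 60 had the reverse. Among the 198 with a difference below 0 these counts were 49 and 39. The SKNAS effect itself was called for 422 of the 485. Among the 485 genes, 7 had all SKNAS control libraries under 1 TPM and all SKNAS Hmx1 libraries at 5 TPM or more, and none had the reverse.

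Genes silent outside SKNAS included inflammatory and metal-binding genes among their largest rises. UBD, a ubiquitin-like modifier induced by inflammatory cytokines, was at 0.244, 0.126 and 0 TPM in SKNAS control and at 11.7, 5.79 and 6.62 TPM in SKNAS Hmx1, and was listed at 0 in all 12 other libraries. BHMT2, a methyltransferase of homocysteine metabolism, went from 0.0911, 0.0673 and 0.197 TPM to 6.19, 3.62 and 5.78 TPM and was also listed at 0 elsewhere. MT1G, a metallothionein, went from 1.28, 2.06 and 1.06 TPM to 16.8, 12.5 and 16.1 TPM, against at most 0.20 TPM elsewhere. The SKNAS arms did not overlap for any of these. CXCL10, a chemokine that attracts T cells, moved from 0.453, 0 and 0.229 TPM to 6.29, 4.49 and 4.81 TPM (difference 2.28, SE 0.19, adjusted p = 3.3e-07). The remaining named rises of the class were TMEM156, the cancer-testis genes MAGEB2 and PAGE4, and MEIOB, a gene of meiotic recombination.

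The largest falls of protein-coding genes in this class exceeded their largest rises. ODAM, a secreted protein first known from enamel-forming cells, went from 49.1, 47.8 and 46.8 TPM to 1.71, 1.02 and 1.52 TPM (difference -4.35, SE 0.16, adjusted p = 1.9e-11). FDCSP, a small secreted peptide encoded near it on chromosome 4, went from 37.7, 62.3 and 38.2 TPM to 1.13, 0 and 1.23 TPM (difference -4.77, SE 0.30). Both were listed at 0 in all LAN-1 and KELLY libraries. BMP5, a bone morphogenetic protein, went from 25.2, 25.1 and 21.3 TPM to 2.23, 1.72 and 1.57 TPM. TLL1, a tolloid-like protease known to act on antagonists of that family and on collagen precursors, went from 15.8, 16.3 and 18.8 TPM to 0.954, 0.935 and 0.88 TPM. MYOC, a secreted glycoprotein, fell from 162, 160 and 99.5 TPM to 16.5, 11.3 and 20.3 TPM. ANGPTL1 also fell. The lectin genes CD69 (26.9, 24.0 and 18.5 TPM, then 1.65, 0.705 and 1.11) and CLEC2B (53.7, 57.4 and 51.1 TPM, then 4.76, 4.13 and 4.48) fell as well. Both lay in a run of 7 neighbours called below 0 on chromosome 12 between 9905082 and 10375727, all 7 tested genes of that span.

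**Figure D3:**
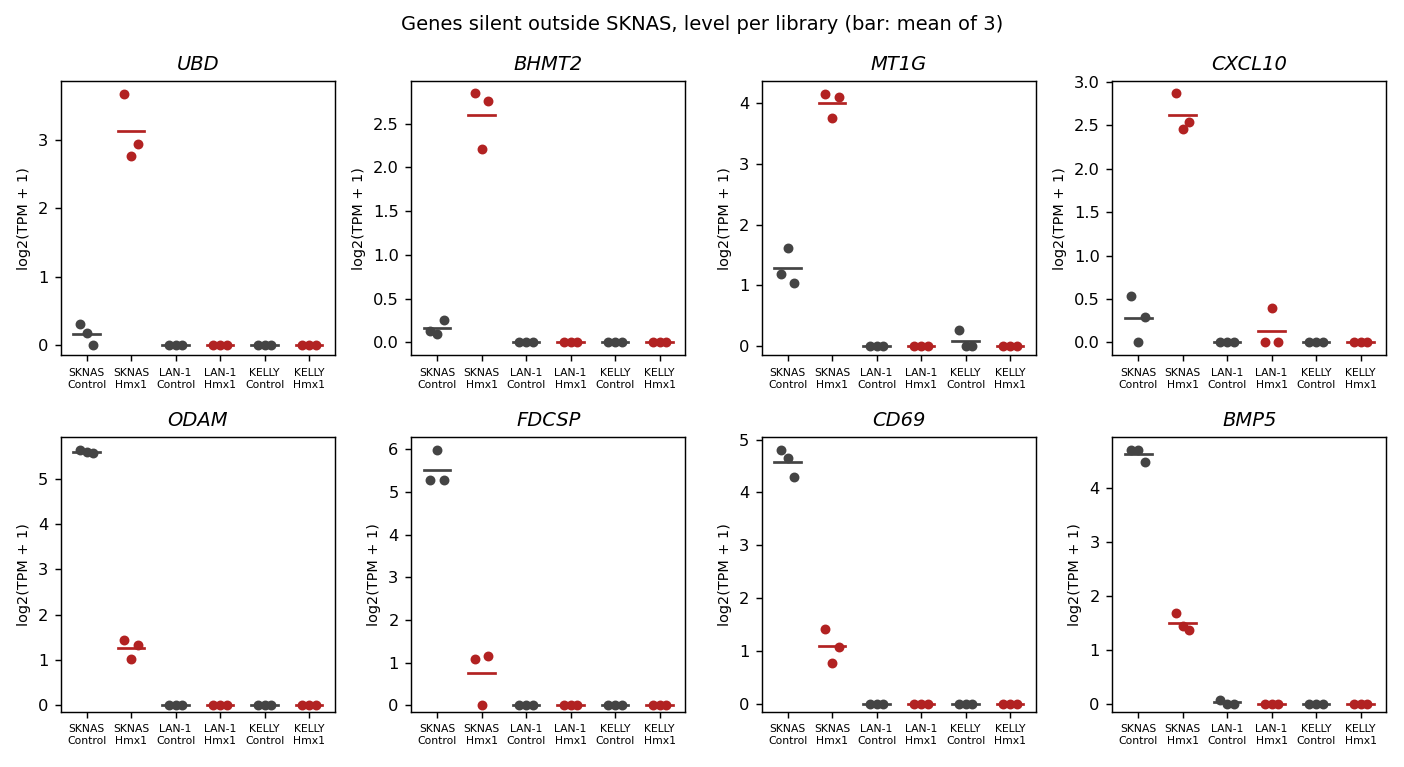
Level of 8 genes silent outside SKNAS, in log2(TPM + 1) on the y axis, with a point for each of the 18 libraries and a bar for the mean of 3; control is grey and Hmx1 red. The LAN-1 and KELLY points lie at or near 0, and the SKNAS arms do not overlap in any of the 8 panels.

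Of the 485 called genes expressed in all lines, limma called the effect of 12 in LAN-1, of 4 in the mean of both lines and of 0 in KELLY. Of all genes tested, these effects were called for 0.45%, 0.15% and 0.0912%. At an unadjusted p under 0.05 the KELLY count was 64, and the share of all genes at that limit is not given. The 485 were picked by a difference that holds the LAN-1 and KELLY effects, so these counts are a description. HSPA12A, a member of the HSP70 family, rose in SKNAS from 2.61, 2.44 and 2.03 TPM to 24.6, 16.9 and 27.3 TPM and fell in LAN-1 from a mean of 1.96 to 0.204 TPM (effects 2.81 and -1.26, limma adjusted p = 1e-06 and 0.0474). BST2, an interferon-induced protein that tethers virions, rose in SKNAS from 38.5, 41.0 and 34.9 TPM to 104, 83.6 and 88.0 TPM and fell in LAN-1 from 5.78 to 2.32 TPM. ADD2, a cytoskeletal adducin, fell in SKNAS from 23.2, 21.9 and 28.2 TPM to 9.52, 8.56 and 11.7 TPM and rose in LAN-1 from 2.08 to 8.94 TPM. These 3 were the only genes of the class with called effects of opposite sign in SKNAS and another line. In KELLY their arms overlapped.

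CNOT4, a ubiquitin ligase subunit of the CCR4-NOT deadenylase complex, and PRSS3, a trypsinogen, had a called rise in the mean of the other lines that was larger than their SKNAS effect. CNOT4 had a mean of 13.7 TPM in LAN-1 control and 47.5 in LAN-1 Hmx1 (effect 1.72, adjusted p = 0.000125), while its SKNAS arms overlapped. Its call in the difference (-0.91, SE 0.23, adjusted p = 0.024) was lost in 6 of 30 alternatives, with an adjusted p of 0.78 against KELLY alone. The 5 others left out 1 SKNAS library each, and gave 0.0912 without control replicate 1, 0.0628 without control replicate 3 and 0.0686, 0.0591 and 0.0595 without Hmx1 replicates 1, 2 and 3. PRSS3 rose in LAN-1 from 3.27 to 9.77 TPM, and its SKNAS effect of -0.53 did not pass (adjusted p = 0.11). Against KELLY alone its difference was not called either (adjusted p = 0.10), and ADD2 lost its call there too (0.116).

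**Figure D4:**
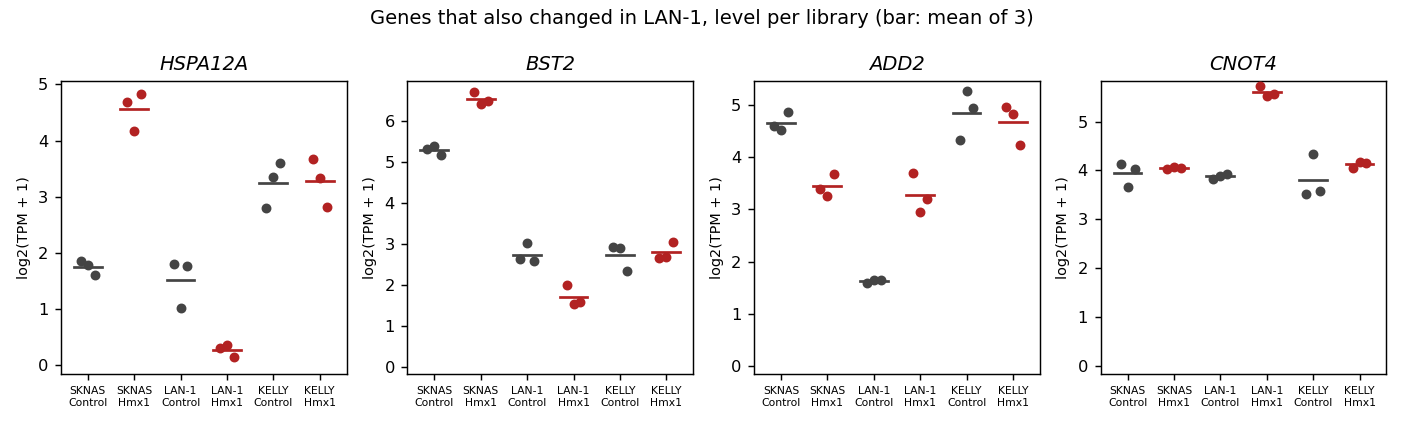
Level of HSPA12A, BST2, ADD2 and CNOT4 in log2(TPM + 1) on the y axis, with a point for each of the 18 libraries and a bar for the mean of 3; control is grey and Hmx1 red. The arms of SKNAS and of LAN-1 separate in opposite directions in the first 3 panels, CNOT4 separates in LAN-1 only, and the KELLY arms overlap in all 4 panels.

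Gene lists were read by counts and medians beside all genes tested, whose median difference was 0.02. The lists with the lowest medians were metabolic and secretory. In cholesterol synthesis, the pathway that makes sterols from acetyl-CoA, 21 of 23 tested members had a difference below 0, 3 of them called, and the median was -0.55. The 3 calls were 13% of the list, against 6.38% of all genes tested. The median effects were -0.37 in SKNAS, 0.29 in LAN-1 and 0.00 in KELLY, so LAN-1 and SKNAS lay on opposite sides of 0. MSMO1, a sterol methyl oxidase, was at 184, 117.9 and 122.1 TPM in SKNAS control and at 74.0, 78.0 and 71.9 TPM in SKNAS Hmx1 (difference -1.33, SE 0.30, adjusted p = 0.011). Its call was lost without SKNAS control replicate 1 (adjusted p = 0.0523) and against KELLY alone (0.0759). So was that of IDI1, an isoprenoid isomerase (-0.96), with 0.0508 without that library and 0.18 against KELLY alone. CYP51A1, the third called member, lost its call in 15 of 30 alternatives. The list's median kept its sign in all 30, between -0.77 against LAN-1 alone and -0.38 against KELLY alone.

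In the unfolded protein response, the programme that adds chaperones when the endoplasmic reticulum is loaded, 22 of 23 members were below 0 and the median was -0.47. Called were 2 of the 23, or 8.7% against 6.38% of all genes tested, which is near the background. The median effects were -0.33 in SKNAS, -0.07 in LAN-1 and 0.33 in KELLY. The KELLY value rested on 1 library: it was 0.01 without KELLY control replicate 1, 0.39 without replicate 2 and 0.51 without replicate 3. The list's median difference was then -0.39, -0.54 and -0.53. MANF, an endoplasmic reticulum protein secreted under stress, was at 78.8, 73.8 and 73.3 TPM in SKNAS control and at 47.8, 35.5 and 55.8 TPM in SKNAS Hmx1 (difference -1.01, SE 0.24, adjusted p = 0.014). Its call was lost without SKNAS Hmx1 replicate 2 (0.0637) and against LAN-1 alone (0.269). The chaperone HSPA5, the other called member, lost its call in 19 of 30 alternatives.

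Among cell cycle genes 35 of 42 lay below 0, with a median of -0.27, which was -0.15 without KELLY control replicate 1. Called were 3 of the 42, or 7.14% against 6.38% of all genes tested, which is near the background. CCND1, the D-type cyclin of many tumours, went from 3.86, 3.73 and 3.89 TPM to 28.8, 29.4 and 27.5 TPM in SKNAS (difference 2.55, SE 0.28, adjusted p = 9.5e-06) and was at 49.5 TPM or more in every library of the other lines. CCND2, silent outside SKNAS, rose as well (1.68, SE 0.18). CDK1, the mitotic kinase, fell from 236, 196 and 201 TPM to 114.4, 111.8 and 106.9 TPM (-1.14, SE 0.28, adjusted p = 0.017), a call lost without SKNAS control replicate 1 (0.0639) and without SKNAS Hmx1 replicate 3 (0.0519). In the list of MYC targets the called members were MYC, with 25.03, 12.2 and 24.6 TPM in SKNAS control and 4.47, 4.27 and 3.999 TPM in SKNAS Hmx1, and PHGDH, an enzyme of serine synthesis (-1.05, SE 0.23). Both fell, although the call for MYC was lost with a pseudocount of 0.1 (adjusted p = 0.244). The other 27 did not pass, so 6.9% of the list was called, near the 6.38% of all genes tested.

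Sympathetic identity genes were called singly, in both directions. The noradrenergic list had 22 tested members, of which 1 was called above 0 and 4 below, or 22.7% against 6.38% of all genes tested. Its median of -0.07 changed sign in 2 alternatives, to 0.07 without KELLY control replicate 1. TFAP2B, a neural crest transcription factor, went from 23.2, 26.0 and 27.1 TPM to 3.66, 5.93 and 4.10 TPM in SKNAS (difference -2.07, SE 0.28, adjusted p = 0.000105). TH, the rate-limiting enzyme of catecholamine synthesis, went from 3.06, 2.55 and 3.03 TPM to 0, 0.137 and 0.184 TPM, far below the 40.4 TPM that was its minimum in the other lines, with a call in the difference (-1.56) that was lost with FPKM (adjusted p = 0.0551) and against LAN-1 alone (0.068). CHGB and CHGA, which encode granins of secretory vesicles, had differences of opposite sign (-1.45 and 1.08). The SKNAS effect of CHGB did not pass by itself (-0.89, adjusted p = 0.075). For both, it was opposite in sign to the LAN-1 effect, which did not pass (1.17 with adjusted p = 0.109 and -0.82 with 0.0888), and neither call held against KELLY alone (0.327 and 0.462). CHGB was also lost without SKNAS control replicate 3 (0.067), SKNAS Hmx1 replicate 1 (0.0653) or replicate 2 (0.0723).

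On the cholinergic side, LHX8, a LIM homeobox factor of cholinergic neurons, was at 5.49, 3.48 and 6.47 TPM in SKNAS control and at 38.1, 37.3 and 39.2 TPM in SKNAS Hmx1, against at most 2.54 TPM elsewhere (difference 2.72, SE 0.23, adjusted p = 4.1e-07). The effector SLC5A7, the choline transporter, went the other way (-1.41, SE 0.21), a call lost with a pseudocount of 0.1 (0.161). SLC18A3, the vesicular acetylcholine transporter, was called below 0 but lost its call in 9 of 30 alternatives. The other 11 of the 14 tested members did not pass, so 21.4% were called, against 6.38% of all genes tested. Of 13 tested neurotrophin and GDNF receptors, limma called 0 in the difference, and 5 had an unadjusted p under 0.05. The share of all genes at that unadjusted limit is not given, so the 5 have no background to be read against.

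Secreted signals and immune genes separated by member. CCL2, which attracts monocytes, was at 3.18, 4.59 and 3.10 TPM in SKNAS control and at 253, 178 and 168 TPM in SKNAS Hmx1, against at most 1.23 TPM in the other lines (difference 5.61, SE 0.26, adjusted p = 3.1e-10). Of 29 listed chemokines and cytokines 15 passed the filter, and 4 of the 15 were called above 0 (26.7%), against 3.57% of all genes tested. A gene could pass that filter through the SKNAS Hmx1 libraries alone, as CXCL10 did, so the share is a description and no support. The calls above 0 numbered 1 to 5 over the 30 alternatives, and CSF1, a macrophage growth factor and 1 of the 4, lost its call in 12 of them. NPTX2, a neuronal pentraxin, went from 8.76, 6.31 and 6.17 TPM to 272, 216 and 334 TPM (5.14, SE 0.22), and was at most 16.7 TPM elsewhere. SMAD7, an inhibitor of TGF-beta signalling, went from 4.33, 4.66 and 4.28 TPM to 20.8, 20.1 and 20.3 TPM, above the maximum of 13.7 TPM elsewhere. CCL2 and NPTX2 belong to neither of the classes above.

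Antigen presentation genes were called in both directions, 5 of 17 above 0 and 5 below, and the other 7 did not pass. The share called was 58.8%, against 6.38% of all genes tested, and 9 of the 17 were silent outside SKNAS, a class with 31.3% called. CD74, the invariant chain of class II molecules, went from 0.116, 0.618 and 0.469 TPM to 7.80, 5.60 and 3.88 TPM in SKNAS (2.37, SE 0.32). The immunoproteasome gene PSMB9, listed at 0 in the other lines, went from 22.8, 23.8 and 19.9 TPM to 7.03, 3.65 and 8.71 TPM (-1.69, SE 0.24), and its neighbours PSMB8, TAP1 and TAP2 were called below 0 as well. The spans of PSMB9 and TAP1 overlap, so their reads may not have been told apart, and the SKNAS effect of TAP2 did not pass by itself (adjusted p = 0.187). Interferon response genes lay below 0 for 18 of 28, with 4 called below 0 and BST2 called above, or 17.9% called.

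Structural lists had medians below 0, and ribosomal and mitochondrial lists had medians above 0. Collagens and matrix genes had a median of -0.30 with 1 of 30 called above 0 and 3 below, and mesenchymal identity genes had -0.25 with 2 of 24 called above 0 and 5 below. The shares called were 13.3% and 29.2%, against 6.38% of all genes tested. Ribosomal protein genes had a median of 0.17 with 28 of 35 above 0. Mitochondrial transcripts had 12 of 13 above 0, but the only called member, MT-ATP6, lay below 0 (7.69% called). Its difference was -1.78 to -1.23 over the 30 alternatives, and its call was lost with quantile normalization alone (limma adjusted p = 0.0686). The list's median difference was 0.40, while its median effects were 0.05 in SKNAS, -0.26 in LAN-1 and -0.38 in KELLY. Without KELLY control replicate 1, the library with the highest mitochondrial share, that median was 0.26, and without replicate 2, the KELLY control with the lowest share, it was 0.58.

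**Figure D5:**
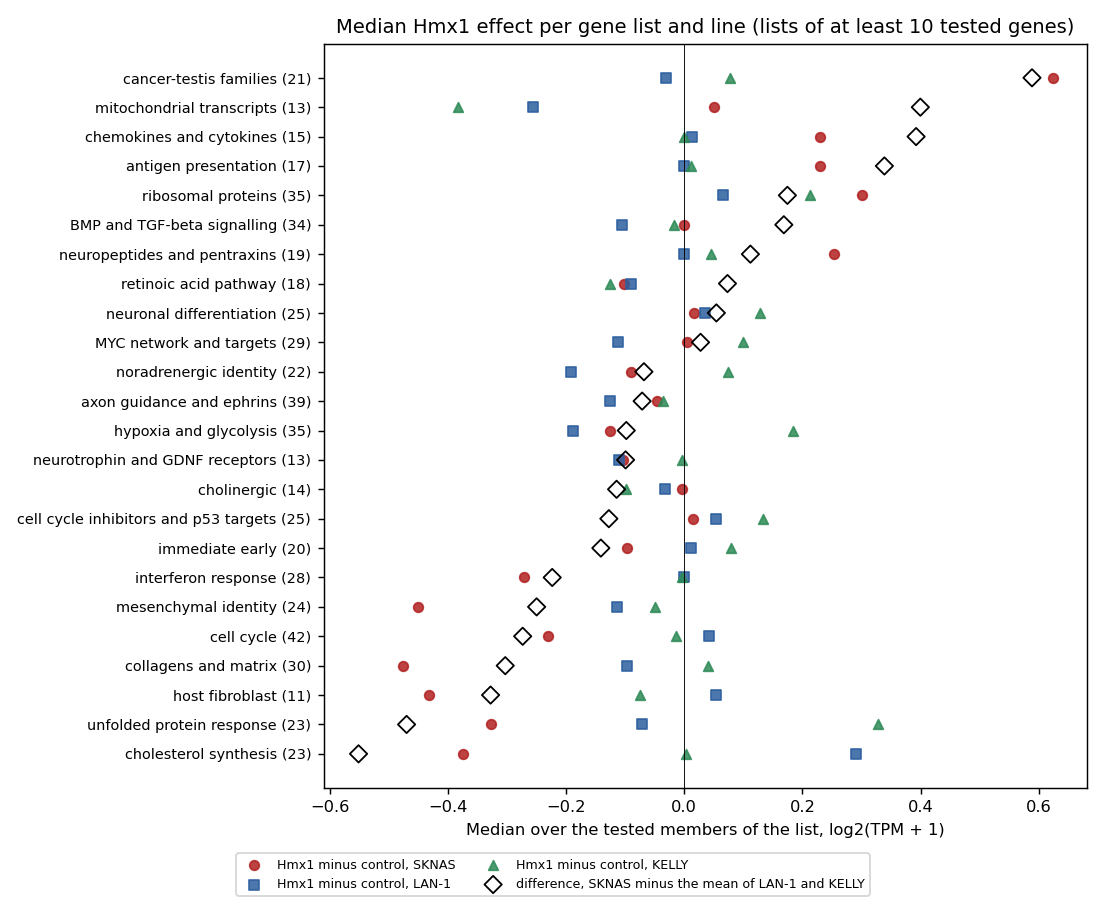
Median over the tested members of each gene list of at least 10 tested genes (number in brackets), in log2(TPM + 1) on the x axis: red circles are the Hmx1 effect in SKNAS, blue squares in LAN-1, green triangles in KELLY, and open diamonds the difference of effects. Cholesterol synthesis and the unfolded protein response lie lowest at -0.55 and -0.47, and cancer-testis families lie highest at 0.59.

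Markers of other cell types that a xenograft could hold were tested in part. Of 14 leukocyte markers 4 passed the filter, as did 6 of 12 endothelial, 11 of 14 fibroblast, 5 of 14 skeletal muscle, 5 of 8 Schwann cell, 2 of 8 skin epithelium, 1 of 6 adipocyte and 1 of 6 erythroid markers. PECAM1 was listed at 0 throughout, but its identifier is placed on a patch sequence, so that 0 is no measurement. The summed leukocyte list ranged from 78.7 to 106 TPM in SKNAS control and from 191 to 288 TPM in SKNAS Hmx1, against at most 2.00 TPM in the other lines. Most of it was PTPRC, a surface phosphatase of blood cells, at 102, 75.7 and 97.9 TPM in SKNAS control and 187, 285 and 220 TPM in SKNAS Hmx1 (difference 1.31). PTPRC was listed at 0 in the other lines. CD14, a monocyte marker, was called below 0 at low levels, 1.10, 1.26 and 1.65 TPM against 0.732, 0.578 and 0.258 TPM in SKNAS (-0.75, adjusted p = 0.0398), and lost that call in 12 of the 26 alternatives that tested it. Single calls in the other lists were TEK (1.08) and ENG (-1.17) of endothelium and KRT17 (2.01) of skin epithelium. The others were MPZL2 (1.10) of the Schwann cell list and LUM of the fibroblast list. LUM was called below 0, with a difference of -1.63 to -0.95 over the 30 alternatives, none of which lost its call. The summed endothelial list was 8.01 to 13.3 TPM in KELLY control and 8.27 to 43.2 TPM in KELLY Hmx1. The summed skeletal muscle list was 7.28 to 61.0 TPM in KELLY control and 8.29 to 10.4 TPM in KELLY Hmx1. The part of these cells in the results was not tested. The summed fibroblast list was 1214 to 1435 TPM in SKNAS control and 876 to 974 TPM in SKNAS Hmx1, and its median difference was -0.33. Whether mouse reads add to these values was not tested. In bulk tissue, fewer cells of a type and less RNA per cell cannot be told apart, which holds for each change above.

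Called genes were spread unevenly over the genome. Over all genes tested, 3.57% were called above 0 and 2.8% below. Chromosome 13 had 28 differences above 0 and 2 below among 309 tested genes. Chromosome X had 44 and 11 among 666, and chromosome 21 had 5 and 16 among 191. Chromosomes 4, 8 and 6 had larger shares called than chromosome X, with calls in both directions. They had 24 above 0 and 45 below among 704, 42 and 24 among 688, and 29 and 52 among 924. In 5 of 236 stretches of 10 Mb with at least 20 genes expressed in all lines, the median difference was at least 0.4 in size, a limit chosen after the values were seen. They held 54 calls above 0 and 1 below among 303 genes, and the other 12620 genes of the class had 233 and 197. All 5 medians were above 0, and the calls rest on the same difference that picked the stretches. The lean of their calls towards values above 0 was thus set by that choice and is a description only. On chromosome 8 between 120 and 130 Mb the medians were 0.71 in SKNAS and -0.39 in LAN-1, and on chromosome 1 in the first 10 Mb they were 0.63 and -0.14. Another run of neighbouring calls held 5 zinc finger genes of chromosome 19 between 53030905 and 53360902 (ZNF808, ZNF83, ZNF600, ZNF28 and ZNF468). All 5 were called below 0, of 9 tested genes in that span, and ZNF28 fell in SKNAS from a mean of 10.02 to 1.89 TPM. In all, 418 of the 1189 called genes lay in 167 runs of calls of the same sign, each within 200 kb of the next. Genes between them that were not called, or were called with the other sign, were passed over. The run that starts with TNFRSF4 thus held 7 of 30 tested genes in its span. How many such runs gene density alone would give was not tested.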

How the data were processed

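RNA of 18 xenograft tumour libraries was sequenced as read pairs after a stranded poly(A) library preparation, per the labels' protocols. The submitters' processing notes name STAR, bcl2fastq and FastQC, and the builds GRCh37 and GRCh38.p12 without a role. The counting tool, its annotation, its strand setting and any filter against host reads were not given in the sources used here. TPM, scaled to a total of 1000000 per library, and FPKM are deposited columns per the file headers, and a further deposited column of mean coverage per gene was left unused. TPM keeps no depth, so the depth is unknown and no counting interval is given. File coordinates were read as GRCh37, and promoter sequences come from RefSeq in GRCh38.p14.

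Groups came from the sample titles. Rows with the same identifier were summed, and symbols were matched by identifier for 52181 of 63677 genes. Effects and their difference were fitted with limma 3.58.1 (R 4.3.3) on log2(TPM + 1), with a pseudocount of 1, over 6 group means with a mean-variance trend (residual degrees of freedom 12, prior 4.95), and Benjamini-Hochberg adjustment ran over 18650 genes. Fold changes on this scale understate changes of low genes. The fit was tested on simulated data with known changes. HMX1, HMX2, HMX3 and MYCN had exact permutation tests. The alternatives were another pseudocount, filters, FPKM, 2 normalizations, 2 variance models, each comparison line alone, class limits and leaving out each library. 2 more were chosen after seeing the data: TPM rescaled without mitochondrial genes, and a spread of its own for each line.

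Named genes are protein-coding by GENCODE v29. They are the 12 largest differences in each direction of genes expressed in all lines with the same sign against LAN-1 and against KELLY, the 8 largest in each direction of genes silent outside SKNAS, up to 5 in each direction whose LAN-1 and KELLY mean effect was called and larger, up to 10 with called effects of opposite sign, up to 4 called members of each of 31 gene lists, the 4 genes tested singly and the 6 runs of neighbours with the most genes. Genes outside this rule (KCNJ11, MAGEA1, PECAM1, PSMB8, TAP1, TAP2, ZNF28 and its neighbours) were named after their values were seen. Some genes are not reported here. The members and lists were chosen with earlier results of these data known.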

Additional observations from a re-analysis of the deposited data

Results flagged for a closer look

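Each of the following differed between lines by a test of the difference itself. In the limma fit, 1189 genes had an Hmx1 effect in SKNAS that differed from the mean effect of LAN-1 and KELLY, 931 differed from LAN-1 alone and 904 from KELLY alone, while LAN-1 and KELLY differed from each other at 39 genes. The comparisons share libraries, so their counts are not independent.

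HSPA12A, BST2 and ADD2 changed in opposite directions in SKNAS and LAN-1. Their differences from the mean of the other lines were 3.43 (SE 0.33), 1.72 (SE 0.24) and -1.96 (SE 0.31), and against LAN-1 alone they were 4.07, 2.27 and -2.88. The KELLY effects were 0.03, 0.07 and -0.17, and none of them was called. HSPA12A and BST2 kept their call in every one of the 30 alternatives, and ADD2 lost it against KELLY alone.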

How the results depend on the processing

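No paired analysis was possible because the labels carry no replicate numbers that tie libraries across groups. In 30 alternatives, 28 of them planned, no called gene changed sign except 3 against KELLY alone, and 74 of 136 called named genes lost their call in none of the alternatives that tested them. The counts were less stable. TPM keeps no depth, which limits what can be said of low genes.

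Among all genes tested, the calls above 0 numbered 392 with a minimum of 5 TPM, and those below 0 numbered 901 with quantile normalization and 812 with median-ratio scaling. Of genes expressed in all lines, 2.22% were called above 0 and 1.53% below. These shares were 4.09% and 3.52% with quantile normalization, 3.68% and 3.49% with median-ratio scaling, and 1.45% and 1.37% where a line mean of at least 5 TPM defined the class. The share below 0 was 2.93% with FPKM, 0.843% against LAN-1 alone and 3.03% with a spread for each line, and the share above 0 was 1.25% against KELLY alone. Of genes silent outside SKNAS, 14.3% were called above 0 and 17% below. With a pseudocount of 0.1 these were 8.35% and 8.88%. With the 5 TPM minimum, which leaves fewer genes, they were 15.5% and 26.0%, and with silence set at 0.1 TPM they were 18.8% and 23.2%. The cause was not tested.

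Leaving out each library in turn gave 390 to 978 calls above 0 and 343 to 783 below 0 among all genes. The lowest of these came without SKNAS Hmx1 replicate 1 (above 0) and SKNAS control replicate 1 (below 0), and the highest without KELLY control replicate 1 (above 0) and replicate 2 (below 0). The shares were 1.35% to 4.05% and 0.936% to 3.27% of genes expressed in all lines, and 7.46% to 15.5% and 11.5% to 17.6% of genes silent outside SKNAS. MYCN, at 0.03 and not called, turned below 0 in 5 alternatives: -0.083 against KELLY alone, -0.000974 without SKNAS control replicate 1, -0.00324 without SKNAS Hmx1 replicate 2, -0.11 without KELLY control replicate 2 and -0.06 without KELLY Hmx1 replicate 3, within a range of -0.11 to 0.16 over the libraries left out.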
